A study of Tupaia belangeri with 6 samples.

Results

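The postsynaptic density is the protein meshwork under the receptors of an excitatory synapse, and its scaffold and signalling genes were described here in the prefrontal cortex of the tree shrew (Tupaia belangeri), a small mammal close to primates. A list of 39 genes was taken, and a gene was counted as measured where its symbol stood as the gene name of a locus in the gene tables, without counting gene-like copies with a suffix. Of the 39 genes, 28 had a named locus, among 95863 loci per table of which 43883 carried a name and 51980 did not. RNA was sequenced from 3 adult females (numbered 1, 3 and 4) and 3 adult males (numbered 1, 4 and 5), with no treatment and no other genotype named. By the study's sample list the males were older, which means that sex and age cannot be told apart. Levels are given as TPM, a transcript abundance that is scaled for length and library, and levels of different genes are set side by side on that scale. A second measure, coverage, is given beside it below, as it ordered some of the genes differently.

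In the density, DLG proteins bind the tails of receptors and hand them to DLGAP proteins, which join the SHANK scaffolds, and HOMER proteins tie SHANK to metabotropic glutamate receptors. Calcium entry through receptors activates the kinase CaMKII and the phosphatase calcineurin, which act against each other on AMPA receptors and their auxiliary subunits. Neuroligins and LRRTM proteins reach across the cleft to presynaptic neurexins, and gephyrin scaffolds the inhibitory synapse instead.

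In all 6 animals, the RNA of the list was led by CAMK2A, the alpha subunit of CaMKII, which took between 22.5% and 35.5% of the summed TPM of the 28 measured genes. By TPM the lowest mean belonged to NLGN1, and the mean levels spanned 103-fold. A mean above 100 TPM was seen for 15 genes and a mean under 50 TPM for 7. The order of the levels was loose. Of 27 neighbouring pairs in the order of means, 3 were ordered the same way in 6 of 6 libraries, namely CAMK2A above CNIH2, CAMK2B above CAMK2G, and LRRC7 above NLGN1. The other pairs swapped places in at least 1 animal.

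**Figure D1:**
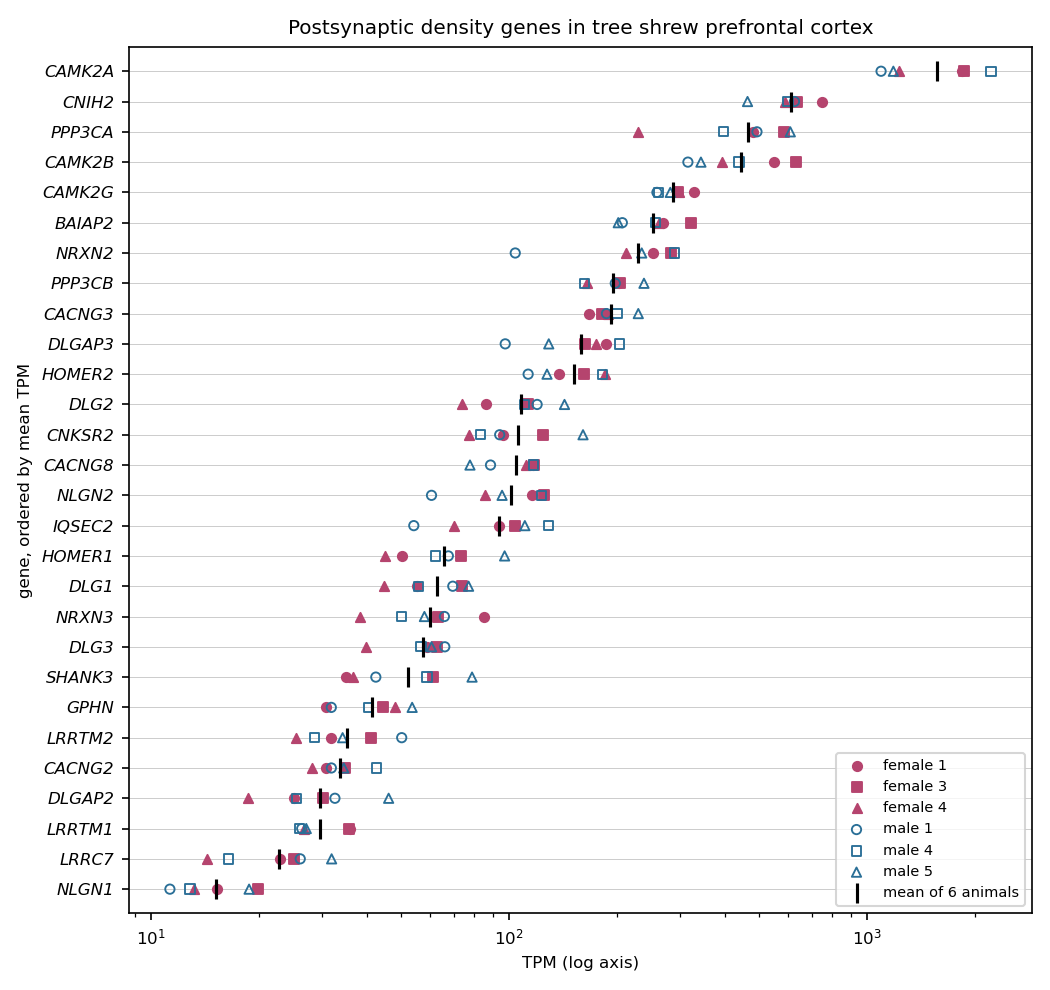
TPM (log axis) of the 28 measured genes, ordered by mean, in 3 females (filled) and 3 males (open), with a bar at the mean of the 6 animals. CAMK2A stands apart at the top with 1094 to 2217 TPM, while most neighbouring genes overlap, and the lone low points are PPP3CA in female 4 (229 TPM) and NRXN2 in male 1 (104 TPM).

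No row carried the name of 11 of the 39 genes. These were DLG4 (PSD-95), DLGAP1, DLGAP4, SHANK1, SHANK2, HOMER3, CAMK2D, NRGN (neurogranin), PPP3R1 (the regulatory subunit of calcineurin), KALRN (kalirin) and NLGN3. A missing name is not a missing transcript, since 51980 loci were unnamed, and the levels of these 11 genes were not analysed here. RefSeq names for another tree shrew assembly (TupChi_1.0) hold 10 of the 11 symbols, all but NRGN. The tables also held 2 gene-like copies of DLGAP1, with mean levels of 18.9 TPM (range 2.50 to 31.6) and 35.1 TPM (range 9.08 to 57.6), which were not counted as DLGAP1. A row can also hold 0 for a gene that neurons use, as NEFL, a neurofilament gene, was listed at 0 in 6 of 6 libraries.

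The libraries carried 3 of 4 markers of cortical excitatory neurons, with SLC17A7, the vesicular glutamate transporter, at 783 to 1569 TPM. Markers of other cell types differed between libraries. The 3 measured of 6 oligodendrocyte markers had a sum of 348 to 482 TPM in the females against 80.7 to 236 TPM for the males, and no marker was at 0. The sum was carried by MAG (63.4 to 346 TPM) and MOG (10.2 to 126 TPM), while MBP did not follow it, at 9.79, 13.7 and 13.1 TPM in females 1, 3 and 4 and 13.6, 9.77 and 7.07 TPM in males 1, 4 and 5. The 4 measured of 7 striatal projection neuron markers had a sum of 140 to 320 TPM in the females against 113 to 506 TPM for the males, and 1 of them, RGS9, stood at 43.7 to 54.6 TPM in female 1, female 3 and male 1 but 0.355 to 1.52 TPM in the other 3 libraries. Loci without a strand took 2.30% to 7.88% of the TPM, the most in male 5. In bulk tissue, fewer cells of a type and less RNA per cell cannot be told apart, and the part of these differences in the values below was not tested. No library was a copy of another, as the Spearman correlation of the 28 genes between libraries was 0.918 to 0.989 over 15 pairs.

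A second measure was read beside TPM, because the tables also list coverage, the mean read depth over the bases of a locus. The ratio of TPM to coverage had a sharp minimum in each library, between 0.650 and 0.836, and coverage was multiplied by it to put both on a TPM scale. At a locus at that minimum the measures are equal. StringTie, the program that made the tables, sums TPM over the transcripts of a gene, so that reads on transcripts that are short against all listed bases would put TPM above the scaled coverage. Single transcripts were not analysed here. The excess of TPM over scaled coverage had a median of 2.71-fold over the 28 genes, against 1.62-fold over 7497 named genes with a strand, a mean of at least 10 TPM and more than 1 TPM in each of the 6 animals. It was under 1.5-fold in 8 of the 28 genes and above 5-fold in 10, or 35.7%, compared with 15.0% of the 7497. The gene with the greatest excess was DLG2 (57.3-fold), followed by CACNG3 (29.1-fold), NRXN3 (26.9-fold), DLG1 (17.6-fold) and GPHN (10.6-fold). The measures were equal for LRRTM2 and CACNG2 in the median library. Mean TPM and mean scaled coverage ranked the 28 genes with a Spearman correlation of 0.65 across genes, which are not independent replicates. In scaled coverage the means spanned 557-fold, from NRXN3 to CAMK2A. The excess correlated with the span of the locus (0.60 over the 28 genes and 0.46 over the 7497). Each family below is therefore given on both measures.

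**Figure D2:**
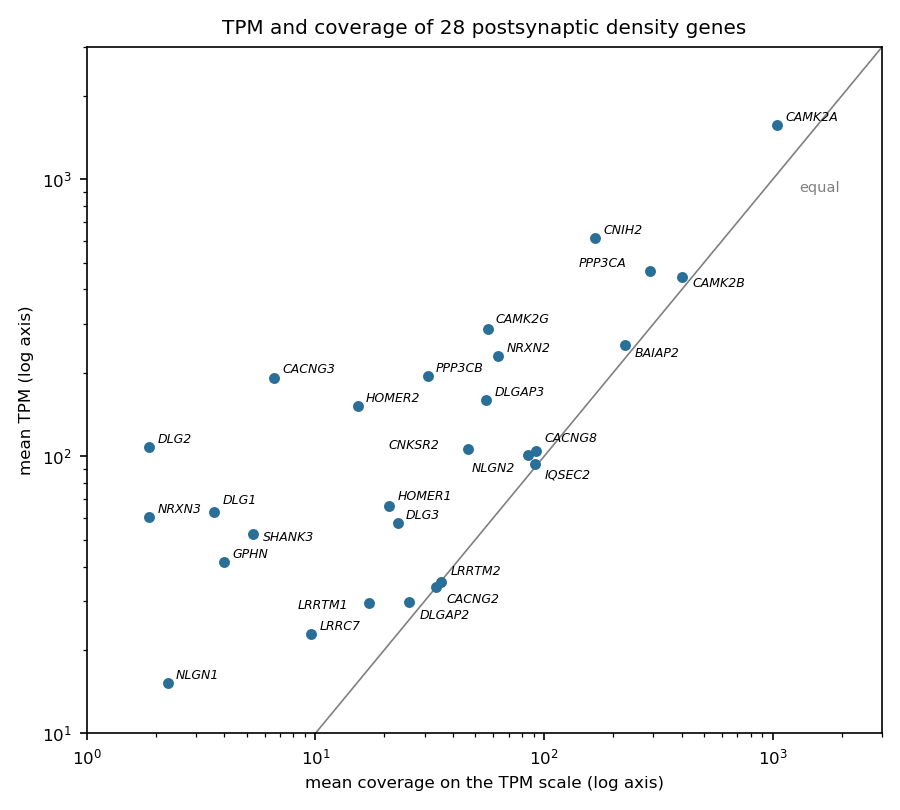
Mean TPM against mean coverage on the TPM scale (both log axes) for the 28 genes, each point the mean of 6 animals, with a line where both are equal. CAMK2B, BAIAP2, CACNG8, NLGN2, IQSEC2, DLGAP2, LRRTM2 and CACNG2 lie near the line, whereas DLG2 (108 TPM against 1.88), NRXN3 (60.2 against 1.88) and CACNG3 (192 against 6.58) lie far above it.

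Among the calcium-dependent enzymes, CAMK2A (chromosome 18, 36629470 to 36762792, minus strand) measured 1844, 1858 and 1224 TPM in females 1, 3 and 4 and 1094, 2217 and 1184 TPM in males 1, 4 and 5, with a mean of 1570 ± 463 TPM (SD, n = 6). Each sex had animals on both sides of the mean, and the females lay within the range of the males. In scaled coverage the same animals measured 1075, 1210, 917, 690, 1228 and 1150, and male 5 moved from the low to the high animals, since its excess of TPM over coverage was 1.03-fold against 1.33-fold to 1.81-fold in the other 5. CAMK2B, the beta subunit that binds actin, averaged 445 ± 123 TPM, and CAMK2G, the gamma subunit, 287 ± 26.1 TPM. CAMK2A took 67.6% ± 4.32 of the summed TPM of the measured CaMKII subunits (64.0% to 76.0%), CAMK2B 19.4% ± 2.52 and CAMK2G 13.1% ± 2.91. The ratio of CAMK2A to CAMK2B was 2.94 to 5.05. By scaled coverage CAMK2A had much the same share, 69.5%, but CAMK2G had 3.82%.

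CaMKII is restrained by the small inhibitor proteins CAMK2N1 and CAMK2N2, which were outside the 39 genes. CAMK2N1 averaged 2168 ± 510 TPM, and its ratio to CAMK2A ranged from 0.956 in female 1 to 2.61 in male 5, with the inhibitor above the kinase subunit in 5 of 6 animals. CAMK2N2 averaged 592 ± 152 TPM.

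Calcineurin is built from a catalytic and a regulatory subunit, and both catalytic genes of the list were measured. PPP3CA (chromosome 20, 22800668 to 23152789, minus strand) measured 480, 584 and 229 TPM in females 1, 3 and 4 and 492, 398 and 610 TPM in males 1, 4 and 5. Female 4 was the low animal, at 229 TPM against 398 or more in the other 5, and it was the lowest in scaled coverage too (197 against 240 to 375). PPP3CB was steadier, at 195 ± 28.2 TPM. PPP3CA took 58.2% of their sum in female 4 and 70.3% to 74.1% in the other animals, with a mean of 69.5% ± 5.68 by TPM and 90.2% by scaled coverage. PPP3CC, the third catalytic gene, averaged 80.4 ± 14.8 TPM, and with it PPP3CA had 61.7% of the sum.

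Among the scaffolds nearest to the receptors, the DLG genes had similar TPM. DLG2 (PSD-93, chromosome 9, 996651 to 2927000, plus strand) measured 86.3, 113 and 73.7 TPM in females 1, 3 and 4 and 120, 110 and 143 TPM in males 1, 4 and 5. The sexes overlapped at female 3 and male 4. DLG1 (SAP97) averaged 62.7 ± 12.7 TPM and DLG3 (SAP102), on the X chromosome, 57.5 ± 9.24 TPM. DLG2 led in 6 of 6 animals with 47.0% ± 2.82 of the sum by TPM, but by scaled coverage DLG3 led in 6 of 6 with 80.8% ± 2.37 and DLG2 had 6.58% ± 1.15. The order within the DLG family therefore depended on the measure. The locus of DLG2 was the longest of the 28, at 1930 kb.

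The DLGAP scaffolds were led by DLGAP3 (SAPAP3, chromosome 7, 54851764 to 54937902, plus strand), at 186, 163 and 175 TPM in females 1, 3 and 4 and 97.6, 203 and 129 TPM in males 1, 4 and 5. The females lay close together, and the males held both the lowest and the highest animal. DLGAP2 averaged 29.7 ± 9.38 TPM, and DLGAP3 exceeded it 2.80-fold (male 5) to 9.39-fold (female 4). The share of DLGAP3 was 83.4% ± 7.32 by TPM, 67.7% by scaled coverage, and 66.0% of TPM with the gene-like copies of DLGAP1 in the family.

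SHANK3 was the SHANK gene with a named locus. SHANK3 (chromosome 17, 48113103 to 48761571, plus strand) measured 35.1, 61.2 and 36.7 TPM in females 1, 3 and 4 and 42.5, 59.0 and 78.8 TPM in males 1, 4 and 5, and 5.31 ± 1.42 in scaled coverage. Its locus of 648 kb overlapped 10 loci on the opposite strand.

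HOMER2 (chromosome 22, 37599503 to 37824881, plus strand) measured 138, 162 and 185 TPM in females 1, 3 and 4 and 113, 183 and 128 TPM in males 1, 4 and 5. HOMER1 measured 50.1, 73.5 and 45.1 TPM in the females and 67.7, 62.3 and 97.2 TPM in the males. The pair moved apart in female 4, where HOMER2 was highest and HOMER1 lowest, with ratios of HOMER2 to HOMER1 from 1.31 in male 5 to 4.10 in female 4. HOMER2 had 69.4% ± 8.61 of the sum by TPM and led in 6 of 6 animals, whereas by scaled coverage it had 42.8% ± 7.71 and HOMER1 led in 5 of 6. HOMER1 has a short form induced by neuronal activity, which the gene tables do not separate. The summed TPM of 8 measured of 11 activity-regulated genes was 666, 642 and 325 for females 1, 3 and 4 against 447, 439 and 275 for males 1, 4 and 5, so male 5 had the highest HOMER1 and the lowest sum.

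**Figure D3:**
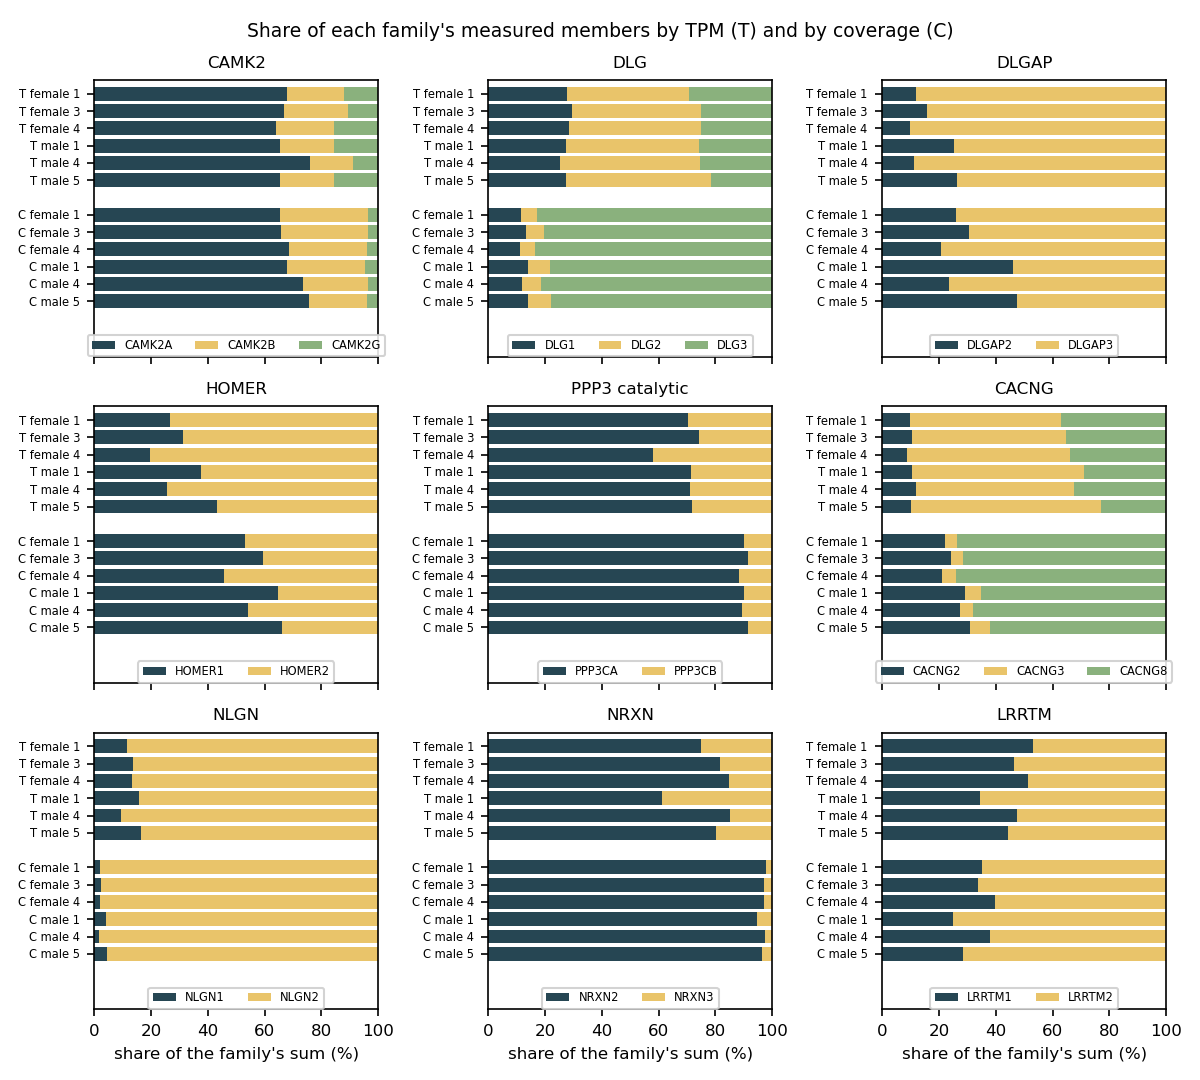
Share (%) of each measured family member in the family's sum, 1 bar per animal, by TPM (upper bars, T) and by coverage (lower bars, C). DLG2 falls from 47.0% to 6.58%, CACNG3 from 58.1% to 5.08% and HOMER2 from 69.4% to 42.8% between the measures, while CAMK2A holds 67.6% and 69.5%.

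The auxiliary subunits of AMPA receptors included the second highest gene of the list by TPM, CNIH2 (cornichon 2, chromosome 17, 52606236 to 52624241, minus strand), at 611 ± 91.7 TPM with a range of 464 to 748. In scaled coverage CNIH2 averaged 167 ± 15.4 and ranked 5 of 28. Its paralogue CNIH3 was 46.1-fold to 79.0-fold lower by TPM. CACNG3 (TARP gamma-3, chromosome 2, 63471345 to 63572302, minus strand) measured 167, 182 and 189 TPM in females 1, 3 and 4 and 187, 200 and 230 TPM in males 1, 4 and 5. CACNG8 (gamma-8) averaged 105 ± 17.1 TPM and CACNG2 (gamma-2, stargazin) 33.8 ± 4.98 TPM. By TPM the shares were 58.1% ± 5.17 for CACNG3, 31.7% ± 5.18 for CACNG8 and 10.2% ± 1.06 for CACNG2, in that order in 6 of 6 animals. By scaled coverage CACNG8 led in 6 of 6 with 69.1% ± 4.87, and CACNG3 had 5.08% ± 1.11. CACNG4 and CACNG5 averaged 36.3 ± 9.06 and 20.6 ± 6.39 TPM, and with both in the family CACNG3 had 49.6% by TPM.

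Of the signalling and linker scaffolds, BAIAP2 (IRSp53, which acts on the actin cytoskeleton) averaged 253 ± 44.1 TPM, CNKSR2 (a scaffold of Ras signalling, on the X chromosome) 106 ± 31.3 TPM and IQSEC2 (an exchange factor for Arf GTPases, on an unplaced contig) 93.7 ± 27.4 TPM. IQSEC1, its paralogue, was 1.68-fold to 2.96-fold above IQSEC2. LRRC7 (densin-180) was low, at 22.8 ± 6.51 TPM.

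Among the adhesion genes, NLGN2, the neuroligin of inhibitory synapses (chromosome 15, 28495696 to 28513672, plus strand), measured 116, 125 and 85.5 TPM in females 1, 3 and 4 and 60.8, 123 and 95.6 TPM in males 1, 4 and 5. It exceeded NLGN1, the neuroligin of excitatory synapses, 5.09-fold to 9.56-fold and had 86.6% ± 2.58 of their sum by TPM and 97.2% by scaled coverage. With NLGN4X, at 36.7 ± 7.73 TPM, its share was 65.7%. Gephyrin (GPHN), which NLGN2 binds, averaged 41.6 ± 8.97 TPM.

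The neurexins act on the presynaptic side. NRXN2 (chromosome 17, 54270239 to 54377948, plus strand) measured 252, 283 and 213 TPM in females 1, 3 and 4 and 104, 290 and 235 TPM in males 1, 4 and 5. Male 1 was the low animal on both measures, with 30.3 in scaled coverage against 52.9 to 81.9 in the other 5. NRXN3 measured 85.0, 63.3 and 38.4 TPM in females 1, 3 and 4 and 66.0, 50.2 and 58.0 TPM in males 1, 4 and 5. Female 1 was the highest for NRXN3 by TPM, but its scaled coverage of 1.62 lay within the range of the other animals, whose highest was 2.33, as its excess was 52.6-fold against 25.6-fold to 39.1-fold elsewhere. NRXN2 had 78.0% ± 9.04 of the pair by TPM and 96.9% by scaled coverage.

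LRRTM2 (chromosome 18, 25271248 to 25277647, minus strand) measured 31.9, 41.1 and 25.5 TPM in females 1, 3 and 4 and 50.2, 28.6 and 34.3 TPM in males 1, 4 and 5, and LRRTM1 averaged 29.7 ± 4.80 TPM. Neither led throughout, as LRRTM2 was higher by TPM in 4 of 6 animals, with a mean share of 53.9% ± 6.56. By scaled coverage LRRTM2 led in 6 of 6, with 66.6%. LRRTM3 and LRRTM4 averaged 16.0 ± 4.15 and 27.6 ± 16.1 TPM, and with both in the family the share of LRRTM2 was 32.8% by TPM. Both LRRTM1 and LRRTM2 lie within catenin genes on the opposite strand, CTNNA2 (119 TPM) and CTNNA1 (53.2 TPM), which were more abundant than they were. No strand-specific protocol was named, so reads from overlapping loci on opposite strands cannot be told apart at these genes. Of the 28 genes, 26 overlapped another locus, 0 of them on the same strand, and the overlapping loci summed above the gene itself for LRRTM1, LRRTM2 and LRRC7, and above 10% of the gene's mean for 10 genes, these included.

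Females and males were then compared to ask whether the RNA of these genes differs by sex. With limma on log2(TPM + 1) over 30238 genes, 0 of the 28 genes passed an adjusted p-value of 0.1 (adjusted p 0.929 to 0.997), against 0.0165% of all genes tested. At an unadjusted p under 0.05 the count was 0 as well, against 2.45% of all genes tested that were higher in females and 2.58% that were higher in males. The estimated differences were positive (higher in females) for 13 genes and negative for 15, with a median of -0.04, and the median of all genes tested was -0.03. The count at an unadjusted p under 0.05 rose to 6 without male 4, 3 without female 3 and 1 without female 4, and it was 1 with median-ratio scaling, quantile normalization or rescaling to loci with a strand, 2 with FPKM and 0 with scaled coverage, none with an adjusted p under 0.1.

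The 5 smallest p-values were those of DLG2, CAMK2B, BAIAP2, HOMER1 and DLGAP2, and their adjusted p was 0.929 in limma for each. DLG2 differed by -0.46 (SE 0.205), with female and male means of 91.1 and 124 TPM. In scaled coverage, where its values are low and log2(value + 1) understates differences, it differed by -0.29 (limma adjusted p = 0.957). CAMK2B measured 548, 632 and 392 TPM in females 1, 3 and 4 and 316, 439 and 343 TPM in males 1, 4 and 5, a difference of 0.50 (SE 0.243). Female 4 fell within the males. BAIAP2 measured 268, 321 and 262 TPM in the females and 207, 257 and 202 TPM in the males, a difference of 0.36 (SE 0.185), and its sexes did not overlap. HOMER1 (-0.43, SE 0.247) and DLGAP2 (-0.46, SE 0.273) were both highest in male 5 and lowest in female 4, with DLGAP2 at 25.03, 30.3 and 18.7 TPM in the females and 32.7, 25.5 and 46.1 TPM in the males. Their differences were -0.24 and -0.25 without male 5, and -0.29 and -0.28 without female 4. The difference of DLG2 was -0.32 without female 4. CAMK2G and BAIAP2 were the 2 genes whose female values all lay above the male values, and 0 genes had the reverse. Among all genes tested, 4.92% were separated with females higher and 4.93% with males higher.

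**Figure D4:**
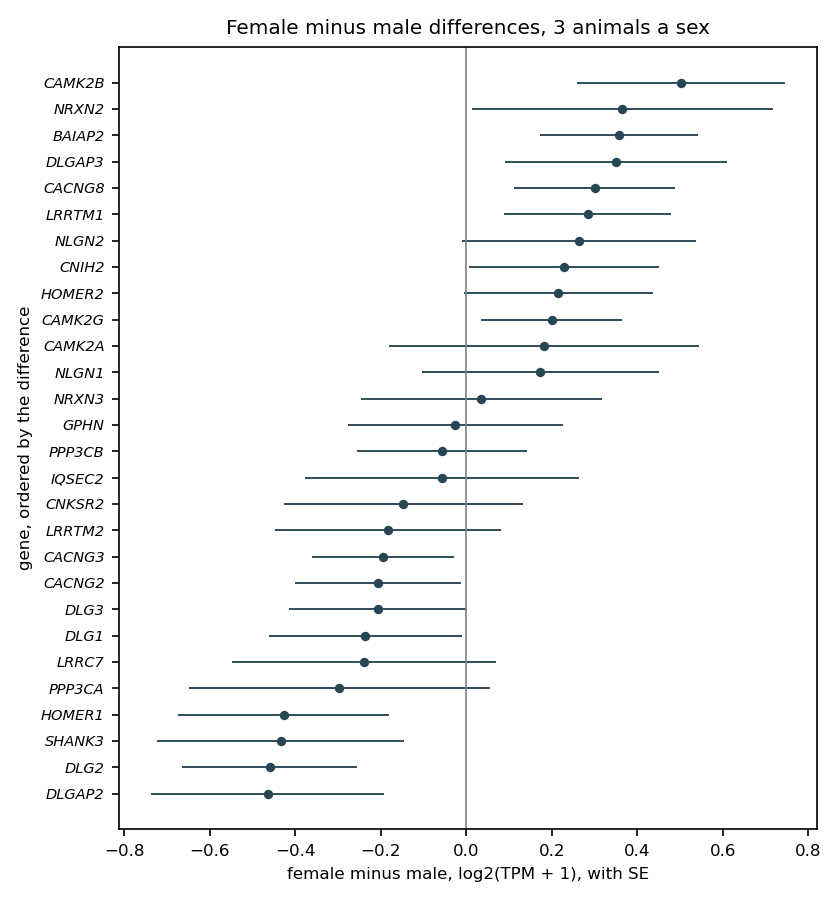
Female minus male difference in log2(TPM + 1) of the 28 genes, ordered by size, with bars of 1 SE from limma (3 animals a sex). The differences run from -0.46 to 0.50, and none has an adjusted p under 0.1.

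The summed TPM of the 28 genes was 6150, 6473 and 4721 for females 1, 3 and 4 against 4635, 6251 and 5251 for males 1, 4 and 5. The low animals were female 4 and male 1, 1 of each sex. These libraries were also the lowest for the summed markers of excitatory neurons (1348 and 1201 TPM against 1507 to 1887 in the other 4), inhibitory neurons (307 and 322 TPM against 415 to 746) and astrocytes (1010 and 924 TPM against 1344 to 1634), from 3 of 4, 3 of 3 and 4 of 5 listed markers. SLC17A7, GAD1, GAD2, GFAP and SLC1A2 were each lowest in these libraries, but TBR1, NEUROD6, SLC32A1, AQP4 and ALDH1L1 were not. TBR1 was lowest in male 4 (183 TPM), NEUROD6 in female 1 (89.9 TPM), and ALDH1L1 was highest in female 4 (50.8 TPM). For neurons in general, the 4 measured of 6 markers summed highest in male 1 (6640 TPM) and lowest in male 4 (4520 TPM). The part of these differences in the summed TPM of the 28 genes was not tested. The mean was 5782 ± 933 in females and 5379 ± 815 in males (SD, n = 3 each), a log2 difference of 0.10 (exact two-sided permutation p = 0.6, where 3 against 3 animals cannot go below 0.1). Without male 1 the difference was -0.0002.

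Other postsynaptic genes gave a like picture. Of 60 further genes listed, 51 were in the tables and 50 were tested, and 0 passed an adjusted p of 0.1 in limma, with a median difference of -0.13. The count at an unadjusted p under 0.05 was 1 in each direction, and the gene higher in females was CAMK2N2 (0.62, SE 0.229, adjusted p = 0.929 in limma).

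The spread between animals differed among the genes. The SD of log2(TPM + 1) over the 6 animals had a median of 0.34 over the 28 genes. The steadiest were CAMK2G (0.13), CACNG3 (0.15), CACNG2 (0.20), PPP3CB (0.21) and LRRTM1 (0.22), and the most variable NRXN2 (0.55), PPP3CA (0.52), SHANK3 (0.46), IQSEC2 (0.46) and CAMK2A (0.43). The highest animal exceeded the lowest more than 2-fold in 13 genes by TPM and in 8 by scaled coverage. Of the 28 genes, 26 varied less than the median of all genes tested (0.49), but that median includes many genes of low level, and 11 of 28 were below the median of 7521 named genes with a strand and a mean of at least 10 TPM (0.30).

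The extremes were not shared evenly among the libraries. Male 5 was the highest of the 6 for 11 of the 28 genes and female 4 the lowest for 11, where these libraries were highest or lowest for 18.4% and 30.3% of the 7521 genes of at least 10 TPM and for 27.5% and 25.99% of all genes tested. Male 1 was the lowest for 9 of the 28, for 26.2% of the 7521 and for 19.3% of all genes tested. The genes that were high in male 5 mostly had long loci. A span is that of the listed locus and may differ from the gene's own length. The 14 genes with a locus above the median span of 164 kb deviated from their means by 0.36 on average in male 5 and the 14 shorter genes by -0.10, a gap of 0.46, and the gap between long and short genes was 0.20 among the 7521. Male 1 had a gap of 0.26 (0.05 among the 7521), and the other 4 libraries had gaps of -0.27 to -0.03 (-0.27 to 0.12 among the 7521). Female 4 had a gap of -0.20 over the 28 genes and -0.27 among the 7521, and female 3 had gaps of -0.03 and 0.12. In female 4 both classes were low, by -0.34 for long and -0.14 for short genes. The Spearman correlation of span with the deviation over the 28 genes was 0.65 in male 5, 0.29 in male 1, -0.11 in female 3, -0.31 in male 4 and -0.42 in both female 1 and female 4. Male 5 also had the greatest share of TPM at loci without a strand (7.88%), followed by male 1 (5.16%), and the part of that share in these gaps was not tested.

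**Figure D5:**
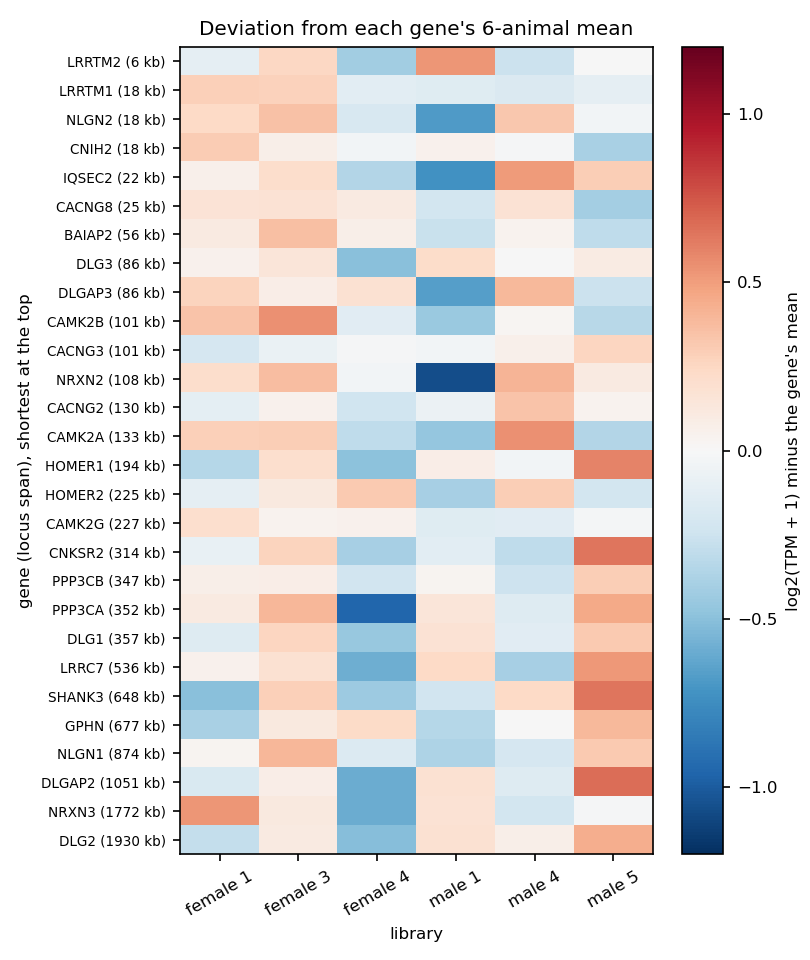
Deviation of log2(TPM + 1) from the gene's mean over 6 animals (colour scale) for the 28 genes, ordered from the shortest locus at the top (6 kb) to the longest (1930 kb), in 6 libraries. In male 5 the long genes are mostly above their means, in female 4 they are mostly below, and PPP3CA in female 4 and NRXN2 in male 1 are the deepest low values.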

How the data were processed

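Polyadenylated RNA of the prefrontal cortex was sequenced in 6 animals. The authors mapped the reads with HISAT2 2.2.1 to the genome TS_3.0 and made a gene table per animal with StringTie 2.2.1. The deposited TPM and FPKM values are scaled for length and library, and the deposited coverage is the mean depth of a locus, a signal not scaled for library size. The deposited gene values hold no read counts, so no counting interval was computed. The paper lists a summary of its RNA-seq dataset, and library depth was not taken from it. Rows of 1 gene ID and reference sequence were summed under the name of the first row. The X segment 4542400 to 6144400 and chromosome 26 before 3132930 were left out of the tests. The test was limma 3.58.1 (R 4.3.3, mean-variance trend, pseudocount 1), on genes reaching 0.1 TPM in 3 of the animals, with Benjamini-Hochberg adjustment within autosomes (27996 genes), the X chromosome (744) and unplaced contigs (1498), and a threshold of 0.1. The fit was tested on simulated data. All 39 genes are named, with values per animal for family leaders and the 5 smallest p-values, and the extended families and the 5 smallest and largest spreads are named too. The genes and lists were chosen with earlier results of these data known. The contig stratum, scaled coverage, the 7521 comparison genes and the split by span were chosen after seeing the data. Some genes of the lists are not reported here. Python 3.11.15, numpy 2.4.6, pandas 2.3.3, scipy 1.17.1 and matplotlib 3.10.9 were used.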

Additional observations from a re-analysis of the deposited data

How the results depend on the processing

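The count of members passing an adjusted p of 0.1 was 0 under every alternative run. At an unadjusted p under 0.05 it was 1 with median-ratio scaling, with quantile normalization and with rescaling to loci with a strand (DLG2 in each), 2 with FPKM (BAIAP2 and CAMK2B), and 0 to 6 when animals were left out 1 at a time (SHANK3, DLG2 and HOMER1 without female 3, CAMK2B without female 4, and BAIAP2, DLGAP2, CACNG8, CAMK2B, DLGAP3 and DLG2 without male 4). The cause was not tested. The summed TPM difference ranged from -0.000204 (without male 1) to 0.24 (without female 4). Numbers 1 and 4 occur in both sexes, and same-numbered animals deviated with correlations of -0.0048 and 0.038. No value for differently numbered animals was set beside these, so whether the numbers pair animals was not settled. With the replicate block 0 members passed at either threshold and the summed difference was 0.002. By coverage the family shares were 6.58% (DLG2), 67.7% (DLGAP3), 42.8% (HOMER2), 90.2% (PPP3CA), 5.08% (CACNG3), 97.2% (NLGN2), 96.9% (NRXN2) and 66.6% (LRRTM2), so the leading gene changed in 3 families. Adding further family members gave 61.7% (PPP3CA), 49.6% (CACNG3), 65.7% (NLGN2) and 32.8% (LRRTM2), and adding the gene-like copies gave 66.0% (DLGAP3). No further member was added to the NRXN family. The count of members with a small spread fell from 26 to 11 against named genes of at least 10 TPM. Under median-ratio scaling, rescaling to loci with a strand and leaving out 1 animal, 224 of 224 mean TPM values moved by less than 1 SD (coverage was not among these settings). Leaving out 1 of 6 animals cannot move a mean by 1 SD, so for those settings the outcome was fixed beforehand. For the 5 members with the smallest p-values, 90 of 90 alternative differences kept their direction and their side of the adjusted p of 0.1. With TPM alone, reads behind a value are unknown, and names were incomplete for 11 members.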

Other observations

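Other synaptic genes of high level, none of them among the 39, were AGAP2 (446 ± 96.1 TPM), WASF1 (WAVE1, an actin regulator, 276 ± 58.8 TPM), CYFIP2 (253 ± 30.9 TPM) and PTPRS (a presynaptic phosphatase, 235 ± 49.1 TPM), each over 6 animals. A locus without a name on the strand opposite to PPP3CA measured 32.9, 35.6 and 5.15 TPM in females 1, 3 and 4 and 58.8, 24.3 and 24.9 TPM in males 1, 4 and 5, and was lowest in female 4, as PPP3CA was. The excess of TPM over scaled coverage varied between animals for GPHN, from 7.37-fold in female 1 to 14.4-fold in female 4, and for NLGN1, from 5.12-fold in male 1 to 9.29-fold in female 4. What these ratios reflect at the level of single transcripts was not tested.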
